A study of Mus musculus with 59 samples.

Results

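The genes described here encode voltage-gated and related ion channels. They are the genes whose symbol begins with Kcn, Cacn, Clcn, Scn or Hcn with a digit, or Trpc, Trpm or Trpv with a digit, and there were 41 of them among the 4484 genes of the deposited table. Of these, 39 of the 4273 genes with enough reads were tested, and the antisense transcript Kcnmb4os1 and the calcium channel gene Trpv6 were not. RNA was sequenced from homogenate medial prefrontal cortex, a frontal region of the brain, of adult wild-type C57BL/6J mice. The animals carried no transgene or deletion and received no treatment that the labels name. Male and female mice were killed every 4 h over 24 h, at zeitgeber times (ZT) 2, 6, 10, 14, 18 and 22, where ZT0 is lights on by convention. Each of the 12 groups of time and sex held 5 libraries except ZT10 females, with 4, for 59 libraries in all (30 male, 29 female). ZT14, ZT18 and ZT22 are taken as the dark phase. The light schedule is not among the labels.

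Ion channels set how a neuron fires. Sodium channels carry the upstroke of the action potential, and calcium channels turn depolarisation into calcium entry, while potassium channels repolarise the membrane, set its resting potential and space the spikes of a train. In cortex, channel activity is tuned by auxiliary subunits as well as by the amount of pore-forming protein, and in clock neurons of the hypothalamus potassium and calcium currents are known to differ between day and night.

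The 41 genes included 13 pore subunits of voltage-gated potassium channels, 3 calcium- or sodium-activated potassium channels, 2 inward rectifiers, 1 leak potassium channel and 2 auxiliary potassium channel subunits. There were 3 calcium channel pore subunits, 2 calcium channel beta subunits, 3 sodium channel pore subunits, 3 members of the CLC chloride channel and transporter family and 4 TRP cation channels. A last 3 matched by symbol alone. Trpc4ap encodes a protein that associates with a TRP channel and is not itself a channel, and Kcnmb4os1 and Kcnmb4os2 are noncoding antisense transcripts. Of the exonic bases of Kcnmb4os2, 34.2% overlapped Kcnmb4 on the other strand, and the strand setting of the counting is not given in the sources used here, so its reads cannot be separated from those of Kcnmb4. The same holds for the 31.1% of Kcnj3 exonic bases shared with the noncoding gene Gm26794 on the other strand. Of Kcnk4, 13.2% of exonic bases overlapped Catsperz on the same strand. The genes lay on 14 autosomes and the X chromosome, with 8 on chromosome 2, where Scn2a, Scn9a and Scn7a are near one another. They were long. The 39 tested genes had a median span of 69709 bases, against 23051 for all 4273 tested genes, of which 4258 had a length, and a median of 6895 exonic bases against 4589.

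Levels were compared between genes per length, as log2 of scaled reads per kb of exon plus 1, averaged over the 59 libraries. On this scale Scn2a was highest, at 9.98 ± 0.38 (SD, n = 59). It encodes the sodium channel pore subunit of excitatory neurons and axon initial segments (ENSMUSG00000075318, chromosome 2, 65620771 to 65767447 in GRCm38). Kcnt2, a sodium-activated potassium channel, followed at 9.83 ± 0.57. These 2 genes could not be ordered, since their difference was smaller than its spread over the libraries. Scn2a was above Kcnt2 in 34 of 59 libraries, by 0.16 with an SD of the difference of 0.88.

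The other classes were as follows, each by its highest gene, on the same per-length log2 scale. Among inward rectifiers, which hold the resting potential near that of potassium, Kcnj4 was at 9.43 ± 0.21. Clcn4, an endosomal chloride and proton exchanger, was at 9.04 ± 0.11. Kcnab2, an auxiliary subunit of Kv1 channels, was at 8.84 ± 0.26. The calcium channel beta subunit gene Cacnb1 was at 8.83 ± 0.37. The axonal potassium channel gene Kcna1 led the 13 voltage-gated potassium channels at 8.43 ± 0.41. Cacna1g, a pore subunit of the low-threshold T-type calcium channel, led the 3 calcium channel pores at 6.70 ± 0.35, with Cacna1c at 6.66 ± 0.25 and Cacna1h at 6.06 ± 0.55. By the length of the longest transcript, Cacna1c was instead above Cacna1g, at 7.34 against 6.98, so that their order depends on the length used. The receptor-operated cation channel gene Trpc5 led its class at 6.43 ± 0.50, and Kcnk4, a mechanosensitive leak channel, was at 4.42 ± 0.41. Trpc4ap was at 7.88 ± 0.21. Of the 40 steps between neighbours in the order of levels, 7 were larger than 1 SD of the difference. That order also depends on the length. Kcnj4 above Clcn4 was 1 of the 7 steps, but by the longest transcript Clcn4 was at 9.93 and Kcnj4 at 9.43. Trpv6 was the lowest gene, at 0.94 ± 0.89, and it had no read in 21 of 59 libraries. The skeletal muscle chloride channel gene Clcn1 was at 1.55 ± 0.93, with no read in 5 libraries, and the sensory neuron sodium channel gene Scn9a at 2.45 ± 0.56.

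**Figure D1:**
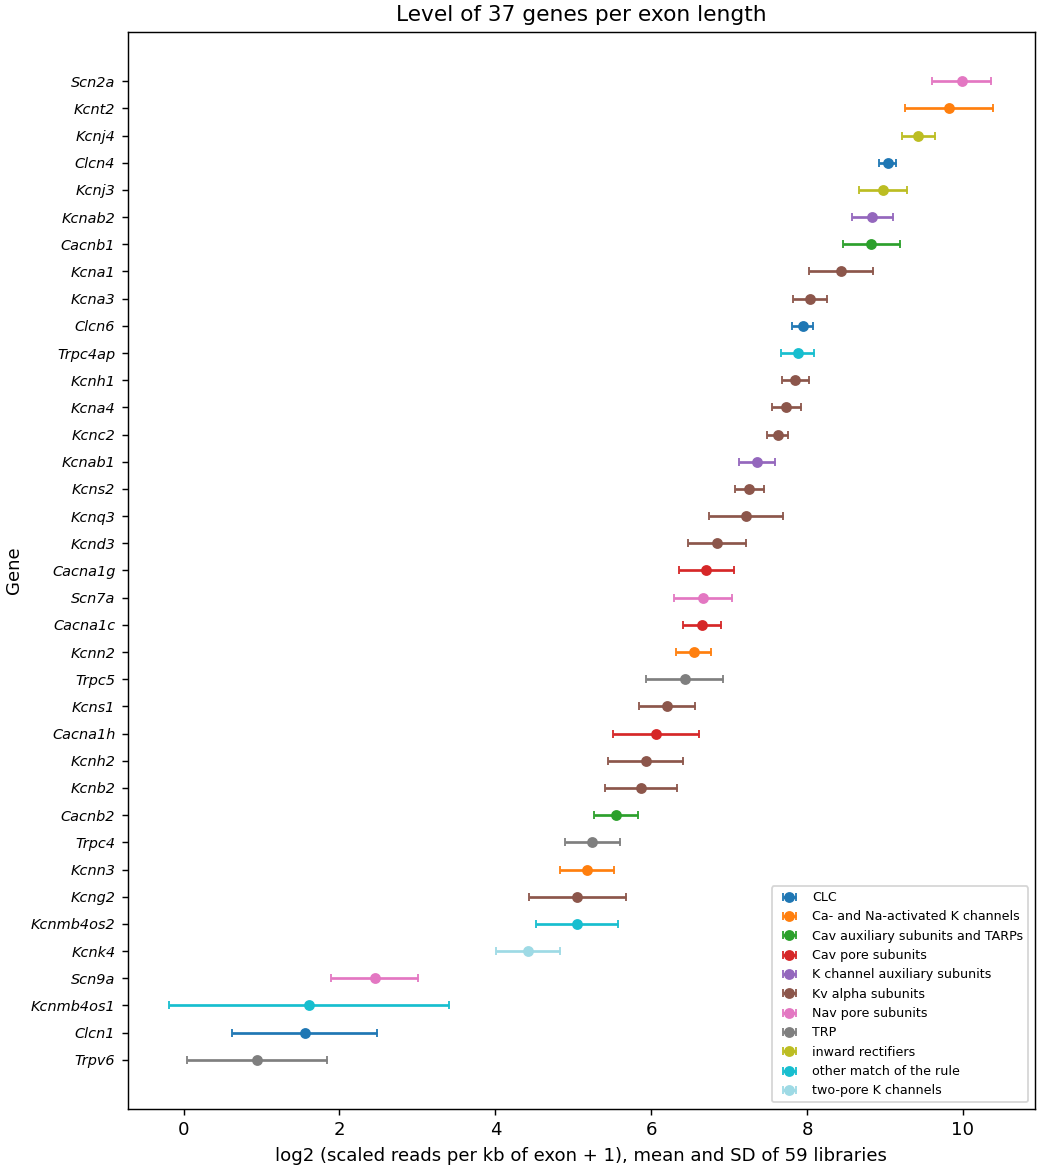
Level of 37 of the 41 genes per exon length, as log2 of scaled reads per kb plus 1 (horizontal axis), with points for the mean and bars for the SD of 59 libraries, coloured by class. Scn2a and Kcnt2 are at the top with overlapping bars, and Scn9a, Kcnmb4os1, Clcn1 and Trpv6 are at the bottom.

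Promoters from RefSeq (assembly GRCm38.p6, 250 bases before to 50 after each start) matched 28 of the 41 genes, with 41 start sites. Letters of time- and activity-linked elements were searched on both strands: the E-box CACGTG, bound by clock activators, its variant CACGTT, the cAMP response element (CRE) TGACGTCA, its core TGACG, which lies inside the CRE, and the D-box TTATGTAA. The E-box was found in 3 of the 28 genes (Kcnab1, Clcn4 and Clcn6), or 10.7%, against 8.09% of 27025 genes with a promoter and 11.7% of the tested genes with one. The CRE core was found in 9 genes, or 32.1%, against 23.05% of all genes and 37.4% of the tested ones. CACGTT was found in Cacnb1 alone, or 3.57%, against 5.44% of all genes and 6.27% of the tested ones. No gene had a D-box, which is rare, in 1.11% of all genes and 0.686% of the tested ones. The 250 upstream bases are shown for Kcnj4, a gene with a called rhythm, and for Clcn4 and Clcn6, which hold E-boxes together with a CRE or its core. Kcnn2, the other gene with a called rhythm, was not among the 28 and was not searched. In the bases shown, some letters are in capitals. These capitals mark the E-box, the CRE and its core. Kcnj4 (chr15:79505242-79505491, minus strand) has the CRE core beginning 167 bases before the start. Clcn4 (chr7:7299558-7299807, minus strand) has 1 E-box and a whole CRE. Clcn6 (chr4:148038814-148039063, minus strand) has 2 E-boxes, 48 and 25 bases before the start, and 2 CRE cores.
Kcnj4: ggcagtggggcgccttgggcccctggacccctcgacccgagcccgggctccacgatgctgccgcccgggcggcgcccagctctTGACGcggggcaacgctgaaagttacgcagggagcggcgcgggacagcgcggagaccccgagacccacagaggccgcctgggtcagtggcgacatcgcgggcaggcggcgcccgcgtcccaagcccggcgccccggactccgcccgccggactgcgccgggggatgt
Clcn4: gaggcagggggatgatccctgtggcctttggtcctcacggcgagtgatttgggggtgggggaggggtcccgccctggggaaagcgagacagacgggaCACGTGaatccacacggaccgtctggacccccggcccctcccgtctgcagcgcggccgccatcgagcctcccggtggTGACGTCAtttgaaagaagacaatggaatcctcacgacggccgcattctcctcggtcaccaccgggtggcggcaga
Clcn6: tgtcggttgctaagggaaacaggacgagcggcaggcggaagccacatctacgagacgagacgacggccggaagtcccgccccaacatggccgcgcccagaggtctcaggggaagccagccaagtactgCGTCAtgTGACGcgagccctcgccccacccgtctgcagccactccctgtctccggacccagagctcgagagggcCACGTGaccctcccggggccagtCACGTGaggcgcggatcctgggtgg

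Clcn4 and Clcn6 were among the members that varied least with time. Their fitted 24 h amplitudes were 0.03 ± 0.02 and 0.01 ± 0.03 on the log2 scale (SE, n = 59), and neither passed the test. Both also had small spreads between libraries, with SDs of 0.11 and 0.14 on the log2 scale. Kcnab1, the other gene with an E-box, had a larger amplitude of 0.09 ± 0.04 (SE, n = 59) and did not pass either. A match of letters is a description of the sequence.

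The first comparison asked which channel genes followed the time of day. From here on, values are log2 of scaled reads plus 1, as deposited, which compare a gene between libraries and not genes with each other. A 24 h cosine was fitted with sex as a covariate, and its amplitude is from mean to peak. At an adjusted p under 0.05 (limma, Benjamini-Hochberg over 4273 genes), 2 of the 39 genes passed, Kcnn2 and Kcnj4, both potassium channels and both highest near or after lights off. Over all tested genes the share was 1.9%. At an unadjusted p under 0.05 there were 6 of 39, against 11.4% of all tested genes. The median amplitude of the 39 genes was 0.09, against 0.08 for all tested genes. Nothing in the labels ties each library to a separate mouse. The titles carry an animal number, and it repeats within groups, such as number 1 in ZT2 male replicates 1 and 3. Whether a repeated number is the same mouse is not stated, so a group may hold fewer mice than libraries. The p-values and each n thus speak for the variation among libraries, which may be technical.

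Kcnn2 encodes the small-conductance calcium-activated potassium channel that carries afterhyperpolarisation and limits repetitive firing (ENSMUSG00000054477, chromosome 18, 45268860 to 45686024 in GRCm38). At ZT2 its log2 values ran from 8.98 to 9.51 with a median of 9.23 over 10 libraries. At ZT6 they ran from 8.96 to 9.76 with a median of 9.29. At ZT10 the 9 libraries ran from 9.23 to 9.70 with a median of 9.49. The values were thus lowest in the first part of the light phase and already higher at its end. At ZT14 they ran from 9.33 to 9.79 with a median of 9.55. At ZT18 they ran from 9.42 to 9.80 with a median of 9.65. At ZT22 they ran from 9.05 to 9.76 with a median of 9.44. The highest time, ZT18, had the narrowest spread (mean 9.62 ± 0.11, SD, n = 10), and its lowest library overlapped only the upper end of ZT2 (9.25 ± 0.21, SD, n = 10). ZT22 had the largest SD, at 9.40 ± 0.27, while ZT6 had the widest range.

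The fitted rhythm of Kcnn2 had an amplitude of 0.18 ± 0.04 (SE, n = 59), a 1.29-fold difference from trough to peak, with the peak at ZT15.6 (limma adjusted p = 0.00362, Benjamini-Hochberg). In males alone the amplitude was 0.19 with a peak at ZT15.5 (limma adjusted p = 0.312), and in females alone 0.17 with a peak at ZT15.8 (limma adjusted p = 0.407). Neither sex passed by itself, and the interaction of sex and rhythm had an adjusted p of 0.990 (limma). Fitted separately in each of the 5 runs of 12 serial numbers, Kcnn2 peaked within 1.68 h of the overall peak in all 5, with amplitudes from 0.09 to 0.26. It was the only one of the 39 genes whose peak stayed within 2 h in all 5 runs, or 2.56%, and 1.47% of all tested genes did so. These fits were chosen after seeing the data and have no test. Kcnn2 had a median of 227 reads per library and at most 489.

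Kcnj4 encodes an inward rectifier of forebrain neurons and their dendrites (ENSMUSG00000044216, chromosome 15, 79483714 to 79505241 in GRCm38). Its log2 values at ZT2 ran from 10.18 to 10.70 with a median of 10.42. At ZT6 they ran from 10.06 to 10.75 with a median of 10.57. At ZT10 they ran from 10.29 to 10.90 with a median of 10.73. The level was therefore highest at the end of the light phase, before Kcnn2. At ZT14 it ran from 10.35 to 10.91 with a median of 10.62. At ZT18 it ran from 10.40 to 10.89 with a median of 10.57. At ZT22 it ran from 9.97 to 10.65 with a median of 10.41. All 6 times overlapped. The mean was 10.67 ± 0.18 (SD, n = 9) at ZT10, close to 10.65 ± 0.19 (SD, n = 10) at ZT14, and 10.38 ± 0.22 (SD, n = 10) at ZT22.

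The fitted amplitude of Kcnj4 was 0.16 ± 0.04 (SE, n = 59), a 1.24-fold difference from trough to peak, with the peak at ZT12.4 (limma adjusted p = 0.0181, Benjamini-Hochberg). Its peak falls at the border of the phases, and its dark minus light difference was 0.01 ± 0.05. In females the amplitude was 0.20 with a peak at ZT13.0 (limma adjusted p = 0.0918), and in males 0.12 with a peak at ZT11.5 (0.790), and the difference of rhythm between the sexes had an adjusted p of 0.768 (limma). In 4 of the 5 runs the peak lay within 2 h of the overall peak, and in run 3 it lay 4.48 h away with an amplitude of 0.06. Kcnj4 had between 241 and 1267 reads per library.

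The calls rested on settings in the following ways. Without the 11 libraries of serial numbers 49 to 60, which were shifted on the first principal component of all genes, Kcnn2 had an amplitude of 0.18 (adjusted p = 0.0410), and Kcnj4 an amplitude of 0.15 (adjusted p = 0.0744, limma), so that Kcnj4 no longer passed. When libraries were scaled by their total reads in the table, neither passed (adjusted p = 0.9997 for both, limma), with amplitudes of 0.17 for Kcnn2 and 0.12 for Kcnj4. On that scale the median gene of a library ran from 3.15 to 5.02, against 9.02 to 9.17 as deposited, and 3 genes of all tested passed.

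**Figure D2:**
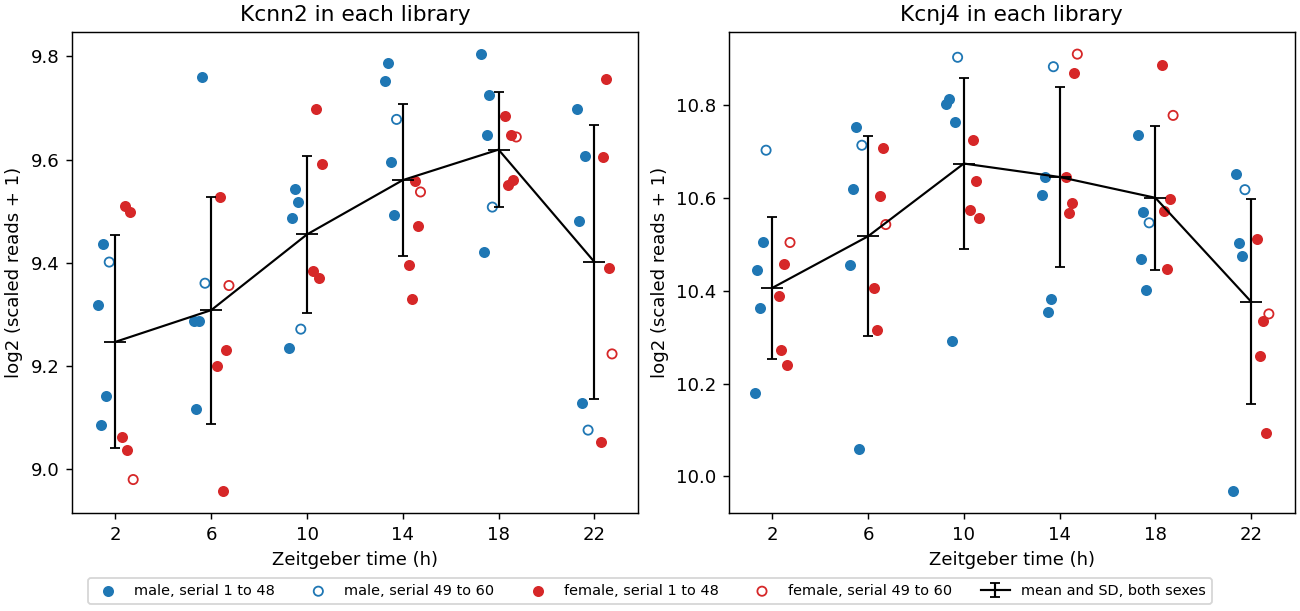
Kcnn2 (left) and Kcnj4 (right) in each of 59 libraries by zeitgeber time, as log2 of scaled reads plus 1, with blue for males, red for females, open circles for serial numbers 49 to 60 and black for the mean and SD of both sexes. Kcnn2 has its lowest mean at ZT2 and its highest at ZT18, Kcnj4 its lowest at ZT22 and its highest at ZT10, and neighbouring times overlap in both.

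Further genes with a small rhythm p did not pass, and 9 are described here, 6 of them potassium channel pores. Kcna4, an A-type channel that delays firing, reached 0.09 ± 0.03 with its peak at ZT4.8 (limma adjusted p = 0.327). Its mean was 10.12 ± 0.18 (SD, n = 10) at ZT6 and 9.89 ± 0.19 at ZT18, opposite in timing to Kcnn2. Kcns1, a silent subunit that modifies Kv2 channels, had 0.17 ± 0.07 with a peak at ZT7.8 (limma adjusted p = 0.359). Its mean was highest at ZT10, at 7.94 ± 0.34 (SD, n = 9), and lowest at ZT18, at 7.40 ± 0.33 (SD, n = 10). Kcns1 was the gene after Kcnn2 with the closest peaks over the 5 runs, all within 2.89 h of the overall peak. Kcnj3, a subunit of G-protein-gated inward rectifiers, had 0.14 ± 0.05 at ZT12.0 (limma adjusted p = 0.394), close in timing to Kcnj4. Kcng2, another silent subunit, had 0.28 ± 0.11 at ZT14.1 (limma adjusted p = 0.422) on a median of 30 reads per library.

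The T-type calcium channel genes Cacna1h and Cacna1g, whose channels open near rest and support burst firing, had amplitudes of 0.24 ± 0.10 at ZT17.8 and 0.13 ± 0.06 at ZT16.6 (limma adjusted p = 0.443 and 0.598). Cacna1h had a mean of 8.90 ± 0.66 (SD, n = 9) at ZT10 and 9.63 ± 0.44 (SD, n = 10) at ZT18, with libraries of the 2 times overlapping between 8.78 and 9.98. Both genes passed when the first 2 principal components of all genes were added as covariates, with amplitudes of 0.23 (adjusted p = 0.00200) and 0.11 (0.0351, limma). Kcnj3 passed there too, with 0.11 (limma adjusted p = 0.0222), as did Cacnb1 and Kcnd3, for 7 members in all, while 499 of all tested genes passed. The last 3 were Kcnk4 with 0.17 ± 0.08 at ZT9.4, Kcnh1 with 0.07 ± 0.03 at ZT8.1 and Kcnab1 with 0.09 ± 0.04 at ZT9.1. Their limma adjusted p ran from 0.592 to 0.633.

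**Figure D3:**
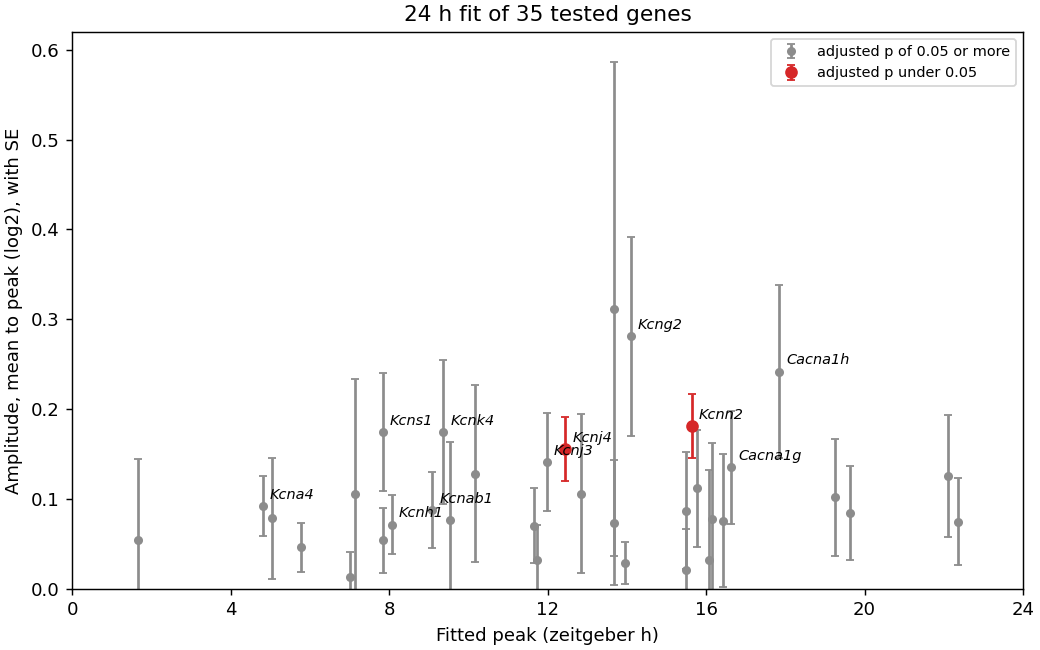
Fitted 24 h amplitude with its SE (vertical axis, log2, mean to peak) against the fitted peak (horizontal axis, zeitgeber hours) for 35 of the 39 tested genes, with red for the 2 that passed and names for 11 genes of small p. Kcnn2 at ZT15.6 and Kcnj4 at ZT12.4 do not have the largest amplitudes, since genes such as Kcng2 and Cacna1h have larger amplitudes with larger errors.

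Whether or not they passed, the fitted peaks of 17 of the 39 genes lay between ZT12 and ZT18, or 43.6%, against 24.5% of all tested genes. Another 12 lay between ZT6 and ZT12 (30.8% against 27.7%), 5 between ZT0 and ZT6 (12.8% against 22.9%) and 5 between ZT18 and ZT24 (12.8% against 24.9%). By mean, 17 of the 39 genes were lowest at ZT2, where 16.9% of all tested genes were. ZT6 was the highest time for 13 members (33.3%, against 18.3% of all tested genes), ZT18 for 11 (28.2% against 18.02%) and ZT14 for 9 (23.1% against 16.5%). These counts are not independent, since channel genes moved together between libraries. Many were higher where the 6 most abundant noncoding genes took a lower share of the reads, as given below. The lowest such shares were in female libraries of these same times. They were 61.4% and 65.6% in ZT14 female replicates 5 and 4, 62.0% in ZT18 female replicate 4 and 63.9% in ZT6 female replicate 4. The part of these libraries in the counts was not tested. In 8 of the 39 genes, or 20.51%, the peaks of all 5 runs lay within 6 h of the overall peak, against 22.4% of all tested genes.

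**Figure D4:**
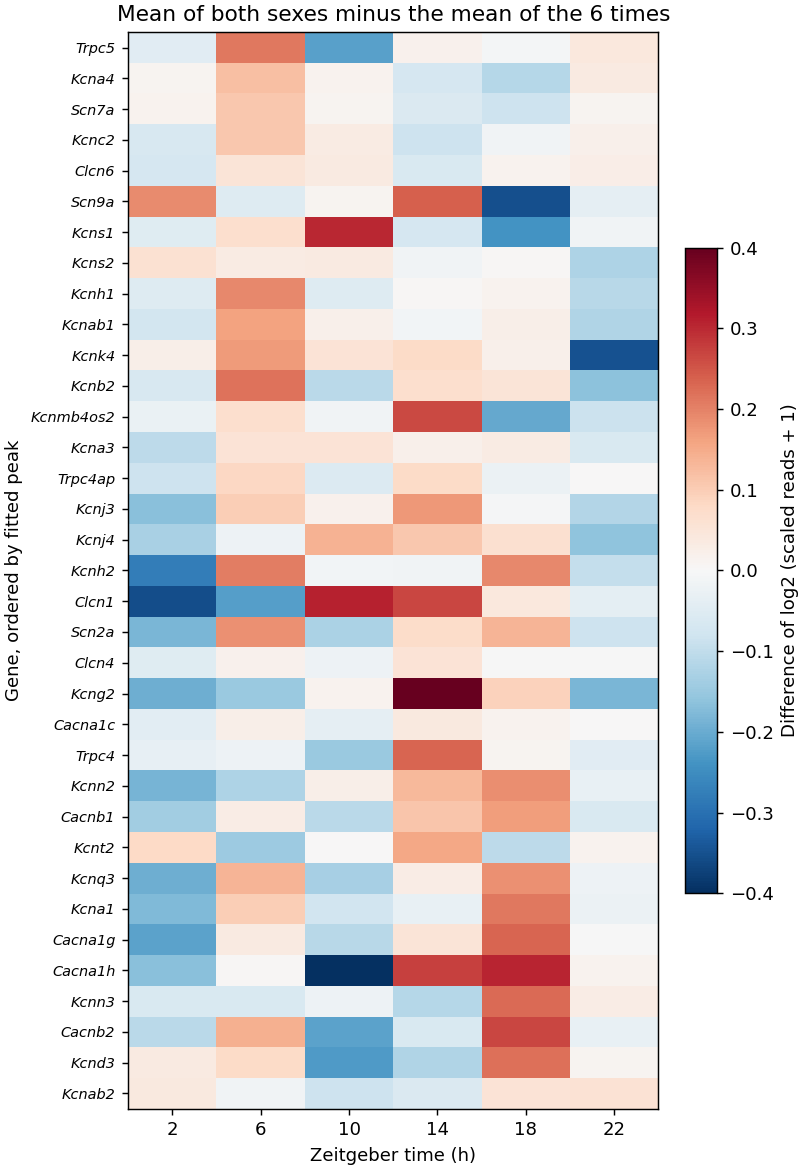
Mean of both sexes at each of 6 zeitgeber times minus the mean of the 6 times, in log2, for 35 of the 39 tested genes ordered by fitted peak from top to bottom, with red for higher and blue for lower. The ZT2 column is blue for most genes of the lower part, and several genes are high at both ZT6 and ZT18, which a 24 h cosine does not describe.

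With time as 6 separate levels, none of the 39 genes passed (limma, Benjamini-Hochberg), where 1.05% of all tested genes did, and 7 had an unadjusted p under 0.05, against 9.76% of all. Kcnn2 was nearest with an adjusted p of 0.0568. Cacnb2 and Kcnh1, chosen here after their values were seen, followed with adjusted p of 0.0731 and 0.113 (limma). Cacnb2, a beta subunit that brings calcium channels to the membrane, had means of 9.38 ± 0.22 (SD, n = 10) at ZT6 and 9.51 ± 0.19 at ZT18, and of 9.03 ± 0.25 (SD, n = 9) at ZT10 between them, so that it was high at 2 times of day. The 10 libraries of ZT18 ran from 9.27 to 9.87 and those of ZT10 from 8.69 to 9.40, so that the groups overlapped at their edges. Kcnh1, a voltage-gated potassium channel, was at 10.91 ± 0.18 (SD, n = 10) at ZT6 and from 10.61 to 10.73 at the other times. In limma voom on recovered reads, 1 gene, Kcnn2, passed, and with the replicate number as a block 2 passed, Kcnn2 and Cacnb2. Leaving out 1 library moved the count of 0 in 15 of 59 fits. Kcnn2 passed without ZT2 male replicate 5, ZT2 female replicate 2 or 4, ZT6 female replicate 2, ZT10 male replicate 1, ZT14 female replicate 2, ZT18 male replicate 2, ZT22 male replicate 1 or 5, or ZT22 female replicate 3 (1 gene each). Cacnb2 passed without ZT10 male replicate 2 or ZT14 female replicate 4 or 5, Kcnh1 without ZT6 female replicate 1, and Kcnn2 and Cacnb2 both without ZT6 male replicate 4.

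Dark phase libraries were then compared with light phase libraries by equally weighted group means. None of the 39 genes passed (limma), where 0.702% of all tested genes did. At an unadjusted p under 0.05 there were 5 of 39, against 8.35% of all, and limma voom called none either. The dark minus light difference was above 0 for 25 of 39 genes, against 49.6% of all, with a median of 0.04 against -0.0006. Kcnn2 had the smallest p, with a mean of 9.53 ± 0.20 (SD, n = 30) in the dark and 9.33 ± 0.21 (SD, n = 29) in the light and a difference of 0.19 ± 0.05 (SE, limma adjusted p = 0.0835). It passed without ZT6 male replicate 4 (adjusted p = 0.0368) or ZT22 female replicate 1 (0.0409, limma), which made the count 1. Cacna1h had the largest of these differences, 0.39 ± 0.13 (limma adjusted p = 0.246), and Cacna1g had 0.19 ± 0.09. Cacna1h alone passed with the noncoding share of each library as a covariate. Kcns1 and Kcna4 had the opposite sign, at -0.21 ± 0.09 and -0.10 ± 0.05. The differences for these 5 genes did not change sign in any of the 59 fits without 1 library or the 9 other alternatives.

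The sexes were compared in level and in rhythm. None of the 39 genes passed for a difference in level between males and females (limma, smallest adjusted p = 0.999), where 0.0234% of all tested genes did. At an unadjusted p under 0.05 there were 2, against 2.43%. Limma voom called none. Male minus female was above 0 for 13 of 39 genes, against 50.2% of all, and the median size of the difference was 0.04, against 0.05 for all. Among the genes of smallest p, the male minus female difference was -0.31 ± 0.14 (SE) for Kcnmb4os2, -0.11 ± 0.06 for Kcnab1 and -0.16 ± 0.13 for Trpc5.

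In males alone no member passed for a rhythm, where 0.164% of all tested genes did, and 2 of 39 had an unadjusted p under 0.05, against 7.54%. In females alone none passed, where 0.328% of all did, and 6 of 39 had an unadjusted p under 0.05, against 8.89%. Limma voom called none in either sex, and with the replicate number as a block Kcnj4 passed in females. The interaction of sex and rhythm passed for no gene at all (0%), and 2 of 39 members had an unadjusted p under 0.05, against 4.21%. By limma voom 4 members did, and the share of all tested genes there is not given. Kcns2, a silent subunit related to Kcns1, had the smallest p. Its female amplitude was 0.15 with a peak at ZT5.8 and its male amplitude 0.08 with a peak at ZT14.9, with a difference of 0.22 ± 0.07 (limma adjusted p = 0.741). Kcnmb4os2 followed with 0.49 ± 0.19, Cacna1g with 0.30 ± 0.12, Kcns1 with 0.30 ± 0.13 and Kcnh2 with 0.40 ± 0.17, all at that adjusted p. Cacna1g had an amplitude of 0.28 in females and 0.03 in males, and this difference did not pass.

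The spread between libraries of a group was larger than the fitted rhythms. The median within-group SD of the 39 genes was 0.37 on the log2 scale, against 0.35 for all tested genes and a median amplitude of 0.09. The 11 libraries of serial numbers 49 to 60 were shifted on the first principal component of all tested genes (24.5% of the variance), with a mean of 20.9 and a range of 10.9 to 32.5. The other 48 had a mean of -4.79 and ran from -35.6 to 25.6, so that the ranges overlapped, with 6 of the 48 inside the later range. Reads in the table came to a median of 9015221 per library, of which the 6 most abundant noncoding genes took 61.4% to 91.2%. This share had a mean of 71.1% in the later libraries and 78.6% in the earlier ones. The 41 channel genes together had 8095 to 54513 reads per library, or 0.802% to 1.31% of the reads outside those 6 genes. Each of the 12 groups had 1 of the later libraries except ZT10 females, so that they were spread over times and sexes.

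Between the later and the earlier libraries 23 of 39 channel genes were higher in the later ones, with a median difference of 0.10, against -0.05 for all tested genes. Kcnq3, a subunit of the M-current channel that restrains excitability, was at 11.60 ± 0.32 (SD, n = 11) in the later and 10.97 ± 0.42 (SD, n = 48) in the earlier libraries. Kcnb2, a delayed rectifier, was at 10.27 ± 0.26 against 9.65 ± 0.44. Kcnt2 went the other way, at 11.96 in the later and 12.76 in the earlier libraries, the largest difference of the 39 at -0.80. In 9 genes, or 23.1%, the difference was over 0.5 in size, in either direction, close to the 20.6% of all tested genes. Scaled by library totals instead, the median gene was 0.33 higher in the later libraries, so that a direction here is relative to the other genes of the deposited scale.

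The level of many channel genes moved with the noncoding share of the library. The Pearson correlation over the 59 libraries, taken within groups and given as a description, was -0.81 for Kcnq3, -0.72 for Kcnb2, -0.71 for Cacnb1 and -0.70 for Scn2a. It was under -0.5 for 16 of 39 genes, or 41.03%, against 12.9% of all tested genes, and over 0.5 for none, against 14.1%. Of the 2 genes with a called rhythm, Kcnn2 had 0.12 and was not at that end. Kcnj4 had -0.43, which was below the median of the 39 genes (-0.39, against 0.09 for all tested genes). The highest values were 0.39 for Kcns2, 0.37 for Kcnt2 and 0.36 for Clcn1. What the share reflects was not tested.

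**Figure D5:**
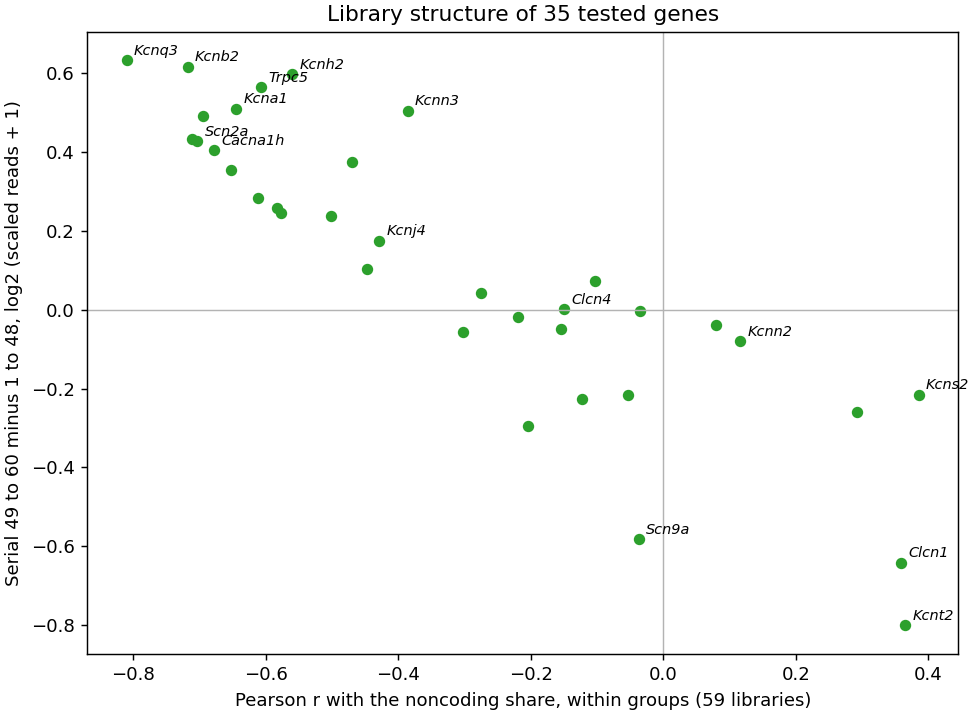
Difference between libraries of serial numbers 49 to 60 and 1 to 48 (vertical axis, log2 of scaled reads plus 1) against the within-group Pearson correlation with the noncoding share of the library (horizontal axis, 59 libraries), 1 point for each of 35 tested genes. Kcnq3 and Kcnb2 are at the upper left and Kcnt2 at the lower right. Kcnn2 lies near 0 on both axes, and Kcnj4 lies to the left of it, at a correlation of -0.43.

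Pairs of channel genes correlated within groups with a median r of 0.15 over 741 pairs, against 0.004 over all pairs of tested genes, and 21.9% of pairs were over 0.5, against 10.01%. These points share a library, its depth and its noncoding share. Scn2a was the centre of the tightest set, at 0.92 with Cacnb1, 0.91 with Kcnq3 and 0.89 with Kcna1. Kcnd3 and Kcna1 correlated at 0.90. Kcnt2 had the lowest values of all pairs, at -0.90 with Kcnab2 and -0.82 with Kcna1.

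The genes whose pattern over the 12 group means was most like that of the called members were also found, as a description. For Kcnn2 these were Gadd45b (Pearson r = 0.87), Otud4 (0.87) and Rnf111 (0.86), and among channel genes Cacna1h had 0.53. For Kcnj4 they were Gga2 (0.90), Zfp296 (0.89) and Sec14l1 (0.87), and the nearest channel gene was Kcnj3 (0.73), the other inward rectifier. Kcnj3 also had its fitted peak within the hour before that of Kcnj4.

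Lists of genes that work with channels showed no called rhythm. Over all tested genes 1.9% passed and 11.4% had an unadjusted p under 0.05. With so few genes in each list, the absence of calls is near that share. The table held 14 of 71 other ion channel genes. All 14 were tested and none passed (limma), with 2 at an unadjusted p under 0.05. They were Orai3, a store-operated calcium channel, with an amplitude of 0.20 at ZT0.46 (limma adjusted p = 0.207), and Lrrc8b, a subunit of volume-regulated anion channels, with 0.14 at ZT10.9. Tmem63c came next with 0.11 at ZT22.0. Of 49 genes of channel partners and trafficking, 18 were in the table and 17 tested, and none passed, with 1 at an unadjusted p under 0.05. It was Vapa, a membrane-tethering protein, with 0.06 at ZT7.1, followed by Fgf12 with 0.06 at ZT11.0 and Adam23 with 0.09 at ZT13.9. Of 30 genes of ion pumps and exchangers, 9 were in the table and none passed. Slc24a4, a sodium, calcium and potassium exchanger, had 0.21 ± 0.06 at ZT18.6 (limma adjusted p = 0.102) and Slc12a5 had 0.07 at ZT13.7. As a check of the time labels, 6 of the 7 clock genes and 5 of the 8 activity-induced genes in the table passed.

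Cell type markers were read beside these results, since in homogenate tissue fewer cells of a type and less RNA per cell cannot be told apart. The table held 5 of 11 glutamatergic, 9 of 13 GABAergic, 4 of 9 astrocyte and 3 of 8 microglial markers, 1 each for oligodendrocytes, their precursors, leptomeninges and olfactory bulb, and none for endothelial cells, choroid plexus or striatal projection neurons. None had a called rhythm, where 1.9% of all tested genes did. At an unadjusted p under 0.05 there were 3 of 9 GABAergic markers and 1 of 4 astrocyte markers, against 11.4% of all tested genes. All 5 glutamatergic markers were higher in the later libraries, where their summed log2 level ran from 15.26 to 15.50, against 14.62 to 15.32 in the earlier ones. The GABAergic sum ran from 12.67 to 13.02 against 12.37 to 13.20, the astrocyte sum from 13.21 to 14.29 against 12.60 to 14.32, and the microglial sum from 9.20 to 10.26 against 9.44 to 10.75. The part of these in the library differences of the channel genes was not tested.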

How the data were processed

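RNA was extracted with a Qiagen micro kit and stranded total RNA libraries were made with a Takara kit, per the labels. The submitters' processing notes name FastQC, HTSeq, DESeq2 and the build GRCm38. The aligner, the annotation and the strand setting are not given in the sources used here. The deposited values are log2 of a scaled read count plus 1. Whole reads were recovered from the steps between values (100% within 0.1 of a whole number). Of 4484 identifiers, 4465 matched a symbol in GENCODE release M21, which gave positions and lengths.

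Groups came from the titles, and replicates are the runs of 12 serial numbers (54 is absent). Genes with at least 10 reads in at least 4 libraries were tested with limma 3.58.1 (R 4.3.3, trend and robust fit) on all libraries, with Benjamini-Hochberg adjustment over 4273 genes and a threshold of 0.05. The code was tested on simulated data. The members and lists were chosen with earlier results of these data known. Named were every called member, the 12 members of smallest rhythm p, the 5 of smallest p in each comparison of sex, interaction and phase, the highest member of each class, the lowest of all, the 3 of smallest p in each partner list and the 3 genes most like the 2 leading members. Some genes that this rule selects are not reported here or drawn in the figures. Alternatives covered scaling, limma voom, the pseudocount, the filter, the variance model, the replicate block, principal components, the noncoding share, serial numbers 49 to 60 and each library left out. Fits of each run alone were added after seeing the data.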

Additional observations from a re-analysis of the deposited data

Results flagged for a closer look

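Of 66 groups examined (11 members of small rhythm p at each of the 6 times), 2 had a library far from the others, judged by its gap to the nearest library over the range of the group. By chance about 1 group in 20 is picked in this way. Kcnh1 at ZT18 had ZT18 male replicate 2 lowest, at a log2 value of 10.50 with the nearest library at 10.68. Kcnh1 at ZT22 had ZT22 female replicate 4 lowest, at 10.23 with the nearest at 10.52.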

How the results depend on the processing

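Under no alternative did a named rhythm move its peak by more than 6 h, or a named sex or phase difference change sign. The interactions are amplitudes without a sign and were not judged in this way. The 2 members with a called rhythm became 0 with scaling by library totals, 1 (Kcnn2) without serial numbers 49 to 60 and 7 with 2 principal components, and stayed 2 in all 59 fits without 1 library. Over those fits the limma adjusted p of Kcnn2 ran from 0.000868 to 0.00813 and that of Kcnj4 from 0.00757 to 0.0363. With time as 6 levels the count of 0 became 1 with limma voom, without trend and robust fit and with the noncoding share, 2 with the replicate block and 5 with principal components, and 0 to 2 without 1 library. Of all tested genes, 33 to 56 passed in those fits without 1 library. In males alone it became 1 (Cacna1h) with principal components. In females alone it became 1 (Kcnj4) with the replicate block and with the noncoding share, and 3 with principal components. For dark against light it became 3 with principal components and 1 (Cacna1h) with the noncoding share, and 0 to 1 without 1 library, where 25 to 38 of all tested genes passed. Counts for the sex difference and the interaction stayed at 0. Calls over all tested genes changed with the setting too. For the rhythm they rose with principal components and fell with scaling by library totals, as given above. Shares of all tested genes for the other alternatives and comparisons are not given here, so these counts are not read as particular to channel genes. The level of Scn2a per length was 10.49 with its longest transcript. Other changes have no tested cause. The pairing of libraries by replicate number differed between runs. In run 5 (serial numbers 49 to 60) all 55 pairs had a correlation of deviations over 0.1, with a mean of 0.407. In runs 1 to 4 the mean was 0.021 to 0.068, with 20 to 26 of 66 pairs over 0.1, so that the likeness was weak there. Over all runs the mean was 0.107 over 319 pairs, against -0.026 over 1276 other pairs, of which 310 were over 0.1. With 5 numbers to choose from, 26 of 59 libraries were nearest to their own. The number thus carried some structure, which the main fits did not include. With the replicate block no other call of a member changed than those given. Low counts limited Clcn1 and Scn9a, with medians of 4 and 19 reads per library.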
